A study of Mus musculus with 6 samples.

Results

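The 28 genes described here encode the enzymes that build cholesterol and its isoprenoid side products, the transcription factor SREBP2 with the proteins that hold or release it, and 4 further genes of sterol transport or of the SREBP2 target set. They were taken by symbol from a given list, drawn up with earlier results of these data known. All 28 were found among the 55453 symbols of the count table and all 28 were among the 13680 genes that passed the filter on low counts.

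The study sequenced poly(A) RNA from bone marrow-derived macrophages (BMDM) in 6 libraries, 3 labelled PP2A KO and 3 labelled WT, to ask how loss of PP2Ac, the catalytic subunit of protein phosphatase 2A, alters gene expression. The KO cells came from LysMcre PP2Ac fl/fl mice on C57BL/6, in which exon 1 of Ppp2ca lies between floxP sites and cre is driven by the Lysozyme 2 promoter, active in the myeloid lineage. The WT cells came from C57BL/6 mice bought from a commercial breeder, for which no cre and no floxed allele is named, so the controls are not described as littermates. By the study's account both groups were young adult mice of either sex, the marrow was grown with M-CSF or with medium conditioned by L929 fibroblasts, and the cells were then given cGAMP, a STING agonist, for a matter of hours. The labels name no treatment, and no untreated libraries were analysed here, so every value below belongs to the treated state. The study states that cell experiments used biological triplicates unless noted, and gives 3 per group for this sequencing. Nothing in the labels says that the 3 libraries of a group came from separate animals. The p-values therefore measure the spread between these libraries, which may not be the spread between animals.

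Cells sense cholesterol in the membrane of the endoplasmic reticulum. When sterol is scarce, SCAP escorts SREBP2 to the Golgi apparatus, where proteases free its N-terminal part to enter the nucleus and raise the transcription of the cholesterol synthesis genes. When sterol is plentiful, or when oxysterols bind INSIG proteins, INSIG holds SCAP and SREBP2 back, and the whole pathway is known to fall as a unit. In macrophages, which also take up cholesterol from debris and lipoproteins, the pathway is known for supplying membrane to dividing cells and for its ties to the interferon response.

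SREBP2 is known to bind the sterol regulatory element together with the factors NF-Y and Sp1, so promoter sequence was examined for each of these. RefSeq windows (build GRCm38.p6) of 300 bases, from 250 before to 50 after the annotated start, were found for 23 of the 28 genes, and not for Sqle, Fdft1, Fdps, Stard4 or Npc1. The letters searched on both strands were TCACNCCAC for the sterol regulatory element, CCAAT for NF-Y, GGGCGG for Sp1 and CACGTG for the E-box, which reads alike on both strands and was counted once. No match overlapped another in the members' windows. The 200 bases before the start are shown for 7 genes, in capitals where any of the 4 motifs matched on either strand, 5′ to 3′ in the direction of the gene. They were picked as the one promoter with a sterol element match (Hmgcs1), 3 enzymes that were lower in KO (Mvd, Lss, Hsd17b7), the sterol sensor Insig1, the one gene that was higher (Npc2) and the gene with the largest change (Lpin1).
Hmgcs1, chr13:119690151-119690350, forward strand: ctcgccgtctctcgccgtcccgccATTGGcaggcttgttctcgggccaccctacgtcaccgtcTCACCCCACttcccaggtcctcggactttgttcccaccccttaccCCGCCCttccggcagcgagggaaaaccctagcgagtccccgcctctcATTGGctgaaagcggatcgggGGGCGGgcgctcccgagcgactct
Mvd, chr8:122443423-122443622, reverse strand: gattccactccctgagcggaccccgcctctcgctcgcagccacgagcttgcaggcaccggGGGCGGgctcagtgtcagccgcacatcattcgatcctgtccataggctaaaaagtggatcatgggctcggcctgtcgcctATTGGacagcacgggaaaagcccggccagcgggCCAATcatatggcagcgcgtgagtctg
Lss, chr10:76531405-76531604, forward strand: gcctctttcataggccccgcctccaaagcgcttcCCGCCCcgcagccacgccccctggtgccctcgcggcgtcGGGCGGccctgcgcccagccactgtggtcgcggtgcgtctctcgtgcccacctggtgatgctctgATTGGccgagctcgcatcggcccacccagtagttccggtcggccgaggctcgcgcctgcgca
Hsd17b7, chr1:169969206-169969405, reverse strand: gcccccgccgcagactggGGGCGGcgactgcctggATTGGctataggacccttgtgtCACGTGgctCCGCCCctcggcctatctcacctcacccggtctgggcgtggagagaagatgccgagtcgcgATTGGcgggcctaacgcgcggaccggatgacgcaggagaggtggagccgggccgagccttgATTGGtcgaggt
Insig1, chr5:28071212-28071411, forward strand: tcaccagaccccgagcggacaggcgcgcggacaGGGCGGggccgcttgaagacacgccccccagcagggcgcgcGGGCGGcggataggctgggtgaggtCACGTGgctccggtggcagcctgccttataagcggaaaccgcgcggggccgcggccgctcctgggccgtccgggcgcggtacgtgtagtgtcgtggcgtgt
Npc2, chr12:84773113-84773312, reverse strand: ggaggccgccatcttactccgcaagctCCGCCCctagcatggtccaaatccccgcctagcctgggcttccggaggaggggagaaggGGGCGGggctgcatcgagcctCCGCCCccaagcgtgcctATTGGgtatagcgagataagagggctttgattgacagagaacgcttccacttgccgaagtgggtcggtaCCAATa
Lpin1, chr12:16610967-16611166, reverse strand: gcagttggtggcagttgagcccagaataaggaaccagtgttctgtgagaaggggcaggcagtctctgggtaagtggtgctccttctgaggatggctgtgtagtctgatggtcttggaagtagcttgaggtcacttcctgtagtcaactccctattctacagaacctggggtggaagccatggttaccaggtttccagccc

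The match TCACCCCAC of Hmgcs1 began at position -137, counted so that -1 is the last base before the start, with NF-Y letters on either side of it. It was the only sterol element match among the 23 genes (4.35%, against 1.31% of the tested genes that had a window). The NF-Y letters were present in 20 of 23 (87% of members and 42.9% of tested genes), and lacking in Acat2, Scap and Lpin1. Sp1 letters were also present in 20 of 23 (67.9% of tested genes), and the E-box in 5 of 23 (11.7% of tested genes). A gene was counted if any of its windows matched. By window, the sterol element was in 3.45% of the members' 29 windows and 1.24% of all 32851 windows of that length. The NF-Y letters were in 69% and 37.4%, the Sp1 letters in 79.3% and 35.7%, and the E-box in 20.7% and 7.15%. Of the 8 members with a window that were lower in KO, 6 held the NF-Y letters, as did 13 of the 14 that passed no threshold. Lpin1 held none of the 4 motifs in its window. These matches describe letters in a short window and nothing more.

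In the data, part of the pathway was lower in PP2Ac KO BMDM, mostly by small amounts, while 16 of the 28 genes passed no threshold with genotype alone. At FDR under 0.05, from edgeR's quasi-likelihood test and Benjamini-Hochberg adjustment over all 13680 genes, 11 of the 28 (39.3%) were lower and 1 was higher in KO, where 19.0% of all genes tested were lower and 18.1% were higher. The fitted log2 fold change (KO over WT) was below zero for 25 of the 28 and for 7272 of the 13680 genes tested. Its median was -0.25 for the 28 against -0.02 for all genes tested. Only Lpin1 passed the study's own thresholds taken in the downward direction, a log2 fold change under -1 and FDR under 0.01, which 2.99% of all genes tested passed. In bulk libraries such as these, fewer cells of a type and less RNA per cell cannot be told apart.

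**Figure D1:**
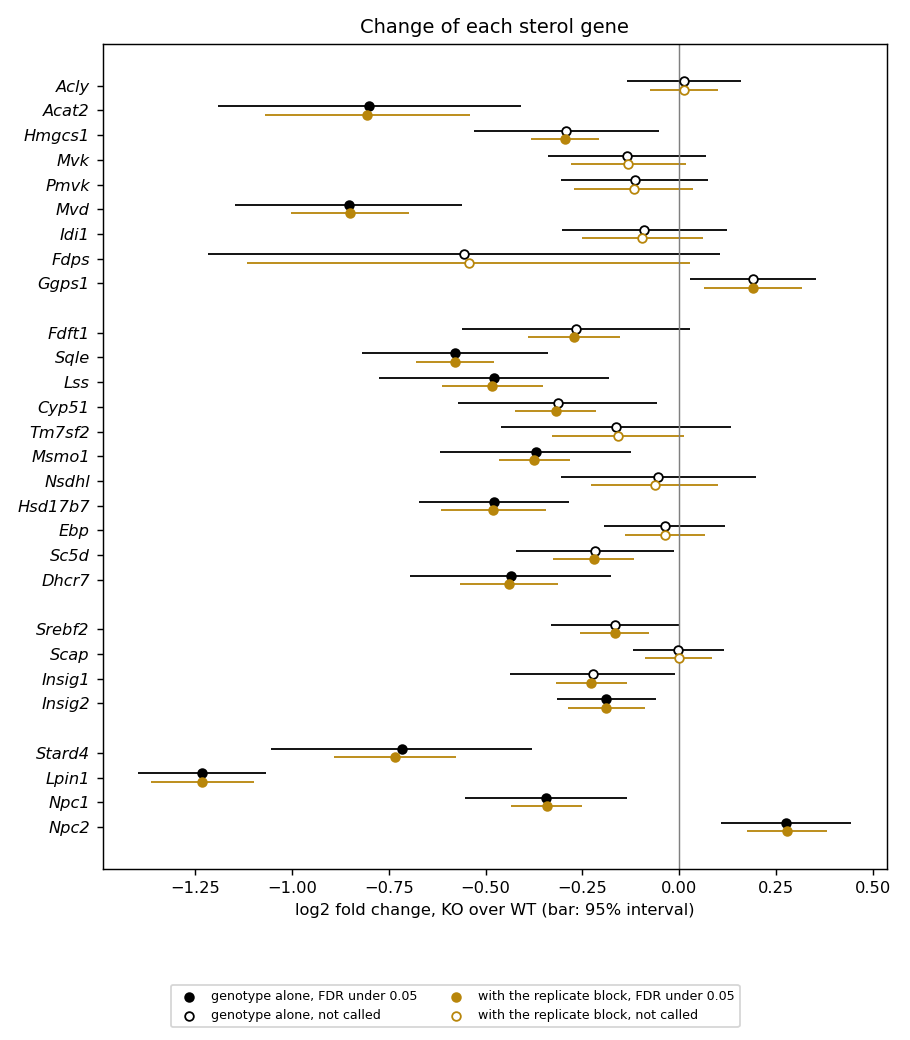
The log2 fold change of each of the 28 genes (horizontal axis, KO over WT) with its 95% interval, from the fit with genotype alone (black) and from the fit that also holds a block for the replicate number (gold), filled where FDR was under 0.05. Points lie left of zero for 25 of the 28 genes, Lpin1 lies farthest left at -1.23, and 12 black and 19 gold points are filled.

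The labels number the libraries 1 to 3 in both genotypes, and the 28 genes differed by that number within each genotype. The library numbered 3 had the highest level in 22 of the 28 genes among the KO libraries and in 21 of 28 among the WT libraries, and in both genotypes at once in 19 of 28 (67.9%), against 17.4% of all genes tested. The median member stood 0.13 above its genotype mean on the log2 scale in KO replicate 3 and 0.13 above it in WT replicate 3. Both replicates numbered 1 lay below their genotype mean, at a median of -0.11 in KO and -0.06 in WT, and the replicates numbered 2 at -0.05 in each. The same median over all genes tested stayed between -0.01 and 0.01 in every library. What the numbers share (a day, a litter or a batch) is not given.

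**Figure D2:**
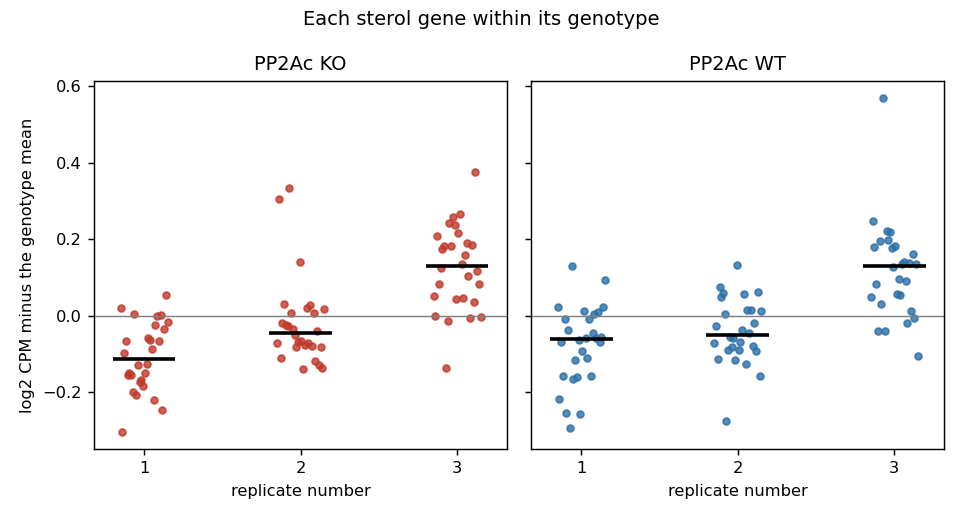
Each point is 1 of the 28 genes in 1 library, as its log2 CPM minus the mean of the 3 libraries of that genotype (vertical axis), by the replicate number in the labels (horizontal axis), with black bars at the medians. In both genotypes the bar of the library numbered 3 lies at 0.13 and the other bars lie below zero.

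Because same-numbered libraries deviated together over all genes (correlations of 0.289, 0.148 and 0.337 for numbers 1, 2 and 3), a second fit kept the replicate number as a block. Libraries of different numbers were not compared in this way. With the replicate block 17 of the 28 (60.7%) were lower and 2 were higher, where 26.4% and 24.4% of all genes tested were, and the members' median stayed at -0.25. The 6 genes added on the lower side were Hmgcs1, Fdft1, Cyp51, Sc5d, Srebf2 and Insig1, and Ggps1 was added on the higher side. Compared library by library within a number, KO was below WT in all 3 pairs for 19 of the 28 (67.9%, against 37.6% of all genes tested) and above it in all 3 for 3 genes (10.7%, against 33.2%). With genotype alone the members' count of lower genes fell to 7 without KO replicate 1 and to 7 without KO replicate 2. Over all genes the lower count fell as well, from 2604 to 2020 without KO replicate 1 and to 1891 without KO replicate 2. Without both libraries numbered 3, 11 members were lower and 0 higher, where 1873 of all genes were lower and 1948 higher.

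The counts also moved with the scaling between libraries. Upper-quartile scaling moved the genome-wide split from 2604 lower and 2470 higher genes to 3356 lower and 2095 higher, and the members' count to 16 lower and 1 higher. Scaling by library totals alone moved the median of all genes tested by -0.22 on the log2 scale, giving 6125 genes lower (44.8%) and 1503 higher, and 25 members lower and 0 higher. Relative to the median of all genes, the members' median was -0.22 with all 3 of these scalings, since a scaling moves all genes alike. It varied more when 1 library was left out, from -0.14 without WT replicate 3 to -0.32 without KO replicate 3. Directions below are therefore relative to the bulk of genes as TMM factors set it.

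Levels are given as counts per 1000000 counts of the library after TMM scaling (CPM), with mean ± SD of 3 libraries a group. The 9 enzymes of the mevalonate and isoprenoid steps make the building blocks of sterols from acetyl-CoA. Of these, 2 were lower and 0 were higher with genotype alone, where 19.0% of all genes tested were lower and 18.1% higher. The median log2 fold change was -0.13. Their summed levels overlapped, at 279.4 to 311.3 CPM in KO and 302 to 335.6 CPM in WT. With the replicate block 3 were lower and 1 was higher, where 26.4% and 24.4% of all genes were, so the count of lower genes in this group was near that of all genes.

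Mvd encodes the decarboxylase that makes isopentenyl diphosphate, the last product of the mevalonate steps proper. Its level was 7.50, 8.18 and 9.39 CPM in KO replicates 1, 2 and 3, and 12.6, 15.6 and 17.2 CPM in WT replicates 1, 2 and 3. Every KO library lay under every WT library, and within each genotype replicate 1 was lowest and replicate 3 highest. The means were 8.36 ± 0.961 against 15.1 ± 2.35 CPM, with a log2 fold change of -0.85 (SE 0.13, edgeR FDR 9.95e-04). Acat2, a cytosolic thiolase that joins acetyl-CoA units at the entry to the pathway, was a low-level gene with 3.04, 4.67 and 3.76 CPM in the KO libraries and 5.64, 6.44 and 7.80 CPM in the WT libraries. The groups did not overlap, and the log2 fold change was -0.80 (SE 0.17, edgeR FDR 0.00607). Of the 50-base windows of its exons, 39.1% also occur in other genes, so reads may have been divided between it and a near copy in a way the counts do not show.

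Hmgcs1, the HMG-CoA synthase whose promoter is printed above, stood at 66.0, 65.5 and 81.7 CPM in KO and 82.7, 80.1 and 98.2 CPM in WT. KO replicate 3 lay above WT replicate 2, so the groups overlapped, while each KO library was below the WT library of its own number. The log2 fold change was -0.29 (SE 0.11), with FDR 0.0576 for genotype alone and 1.06e-04 with the replicate block. The gene was also called without KO replicate 3 (FDR 0.0192), without WT replicate 1 (FDR 0.0490) and without both libraries numbered 3 (FDR 0.0243). It was farther from the threshold without KO replicate 1 (FDR 0.1699), KO replicate 2 (FDR 0.191) or WT replicate 3 (FDR 0.177, log2 fold change -0.19).

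Ggps1, which makes the geranylgeranyl diphosphate used to anchor small GTPases to membranes, pointed the other way. It stood at 25.2, 25.2 and 24.9 CPM in KO and 24.0, 20.6 and 21.3 CPM in WT. All KO libraries were above all WT libraries, with a log2 fold change of 0.19 (SE 0.07), FDR 0.0660 for genotype alone and 0.0168 with the replicate block. Scaling by library totals alone turned its sign, to -0.02, and its FDR with 1 library left out ran from 0.0120 (without WT replicate 1) to 0.218 (without WT replicate 2).

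The other mevalonate genes passed the threshold in neither fit. Acly, the ATP citrate lyase that supplies cytosolic acetyl-CoA for fatty acids as well as sterols, was nearly level at 143 ± 6.36 CPM in KO and 142 ± 6.17 CPM in WT, and the 95% interval of its log2 fold change ran from -0.13 to 0.16. Its sign was not fixed, since it was 0.01 with the main scaling, -0.05 with upper-quartile scaling and -0.20 with library totals alone (FDR 0.0253). The kinases Mvk and Pmvk had log2 fold changes of -0.13 and -0.11, and the isomerase Idi1 one of -0.09. Fdps, which makes farnesyl diphosphate, had only 34 to 39 counts in the KO libraries and 47 to 83 in the WT libraries. Its log2 fold change of -0.55 had an interval from -1.22 to 0.11 (FDR 0.1704). That value rested on WT replicate 3, for it was -0.21 without that library (FDR 0.575) and -0.13 without both libraries numbered 3. In Fdps 26.2% of 50-base windows and in Idi1 17.7% recur elsewhere in annotated genes, and Fdps overlaps Gm43738 on the same strand.

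**Figure D3:**
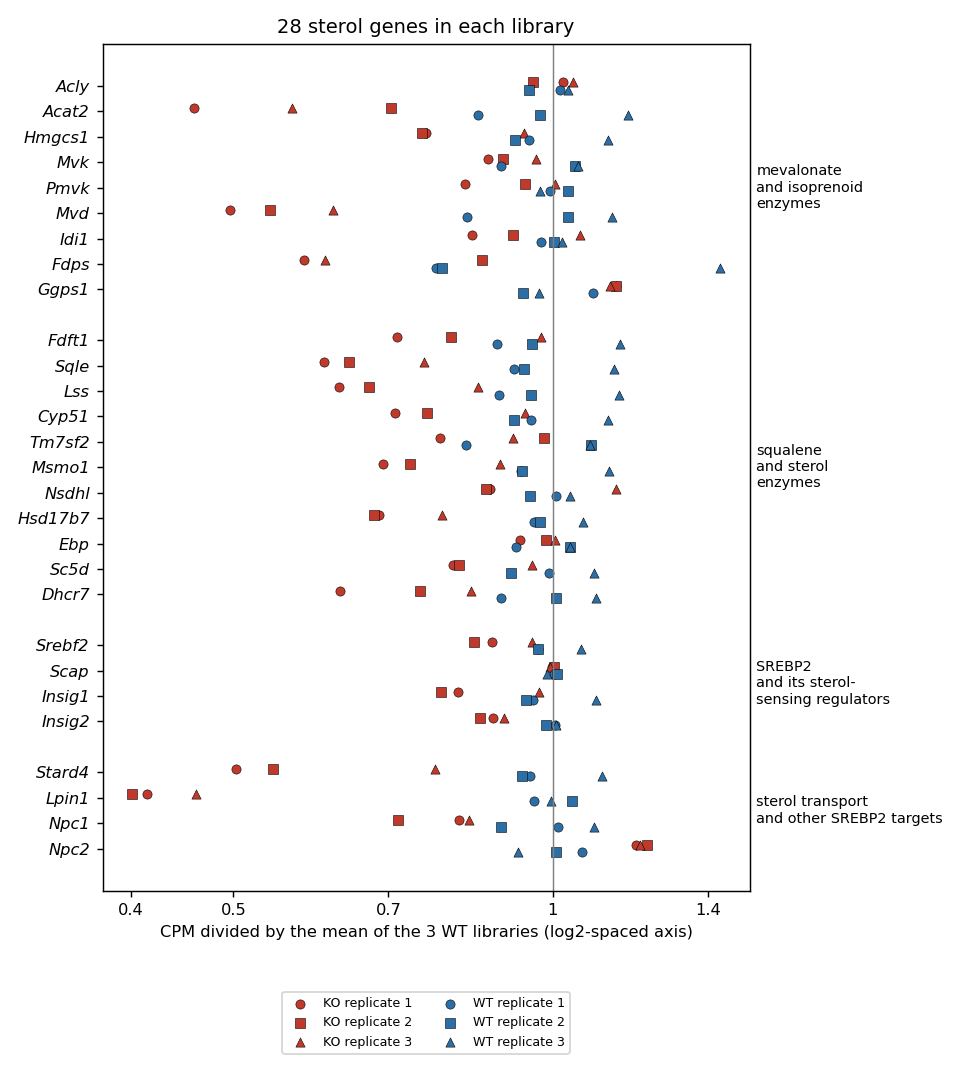
CPM of each gene in each library divided by the mean of the 3 WT libraries (log2-spaced horizontal axis, 1 at the grey line), KO in red and WT in blue, with circle, square and triangle for replicates 1, 2 and 3. All 3 red points lie left of all 3 blue points for 12 of the 28 genes and right of them for 2 (Ggps1 and Npc2), and triangles tend to lie rightmost in both colours.

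Of the 11 enzymes from squalene to cholesterol, 5 were lower and 0 higher with genotype alone. Among all genes tested 19.0% were lower and 18.1% higher. All 11 had a fold change below zero, as did 7272 of the 13680 genes tested. The median of the 11 was -0.31 on the log2 scale. With the replicate block 8 were lower and 0 higher, where 26.4% and 24.4% of all genes tested were. Their summed level was 236.2, 251.5 and 295.9 CPM in KO and 304.4, 310.6 and 361.7 CPM in WT. Every KO sum lay under every WT sum, and the library numbered 3 gave the highest sum in each genotype.

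Sqle, the squalene epoxidase and a rate-limiting oxygenase of the pathway, stood at 24.2, 25.6 and 30.1 CPM in KO and 36.5, 37.4 and 45.4 CPM in WT. The groups were well apart, the smallest gap being between KO replicate 3 and WT replicate 1. Its log2 fold change was -0.58 (SE 0.11, edgeR FDR 0.00259). Hsd17b7, a ketoreductase of the C4 demethylation complex, stood at 10.8, 10.7 and 12.4 CPM in KO and 15.1, 15.3 and 16.8 CPM in WT. It was also clear of overlap, at a log2 fold change of -0.48 (SE 0.09, edgeR FDR 0.00228). Both calls held in all 15 alternative settings.

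Lss, which closes squalene epoxide into the 4-ring lanosterol, stood at 11.2, 12.0 and 15.2 CPM in KO and 15.9, 17.0 and 20.6 CPM in WT. Here KO replicate 3 came close to WT replicate 1 without crossing it. The log2 fold change was -0.48 (SE 0.13, edgeR FDR 0.0190). The call was lost without KO replicate 1 (FDR 0.0753), without KO replicate 2 (FDR 0.0724) and without WT replicate 3 (FDR 0.0520).

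Msmo1, the C4 methylsterol oxidase, had the highest level of the 5 at 48.2, 51.2 and 62.2 CPM in KO and 65.1, 65.2 and 78.8 CPM in WT. No KO library reached a WT library, and the log2 fold change was -0.37 (SE 0.11, edgeR FDR 0.0248). It too was lost without KO replicate 1 (FDR 0.0913), without KO replicate 2 (FDR 0.0901) and without WT replicate 3 (FDR 0.0714). Dhcr7, which performs the last reduction to cholesterol, stood at 12.3, 14.6 and 16.4 CPM in KO and 17.5, 19.7 and 21.5 CPM in WT. Its groups were likewise separate, with a log2 fold change of -0.44 (SE 0.11, edgeR FDR 0.0154), and the call was lost without KO replicate 1 (FDR 0.0525).

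A further 3 sterol enzymes were lower with the replicate block but not with genotype alone. Cyp51, the lanosterol demethylase, stood at 34.9, 37.4 and 46.3 CPM in KO and 46.9, 45.2 and 55.4 CPM in WT, so that KO replicate 3 lay between the 2 lower WT libraries. Its log2 fold change was -0.31 (SE 0.11), with FDR 0.0568 for genotype alone and 2.18e-04 with the block. Fdft1, the squalene synthase that commits farnesyl diphosphate to sterols, had a log2 fold change of -0.27 with FDR 0.141 for genotype alone and 0.00153 with the block. For Sc5d, the lathosterol desaturase, it was -0.22, with FDR 0.0882 and 0.00263. With genotype alone, their FDR depended on single libraries. Without KO replicate 3 all 3 passed (FDR 0.0137 for Cyp51, 0.0462 for Fdft1 and 0.0382 for Sc5d), and without WT replicate 3 they moved away from the threshold (FDR 0.1698, 0.403 and 0.263), as they did without KO replicate 1 (FDR 0.179, 0.378 and 0.229). The log2 fold change of Fdft1 was -0.15 without WT replicate 3. Fdft1 overlaps Ctsb, a highly expressed protease gene, on the opposite strand.

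Tm7sf2 (-0.16), Nsdhl (-0.05) and Ebp (-0.04), which encode a sterol reductase, a C4 decarboxylating dehydrogenase and a sterol isomerase, had log2 fold changes that passed the threshold in neither fit. The interval for Ebp ran from -0.19 to 0.12 and that for Nsdhl from -0.30 to 0.20. Without KO replicate 1 the value for Nsdhl was 0.0072, and without KO replicate 2 it was 0.0148. Tm7sf2 overlaps Vps51 on the same strand, and 9.87% of its 50-base windows recur elsewhere.

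Of the 4 genes of the sterol-sensing machinery, 1 was lower and 0 higher with genotype alone and 3 were lower with the replicate block, the median log2 fold change being -0.18. Among all genes tested 19.0% were lower with genotype alone and 26.4% with the block. Srebf2, the gene for SREBP2 and itself an SREBP2 target, stood at 153, 147 and 167 CPM in KO and 169, 169 and 186 CPM in WT. The groups did not overlap, yet the difference was small, with a log2 fold change of -0.17 (SE 0.07), FDR 0.105 for genotype alone and 0.00549 with the replicate block. Scap, the escort protein that carries SREBP2, stood at 65.5, 65.7 and 65.1 CPM in KO and 65.7, 66.2 and 64.7 CPM in WT. Its 6 libraries were nearly level whatever the genotype, and the 95% interval of its log2 fold change ran from -0.12 to 0.12. The sign of Scap was not fixed, at -0.002 with the main scaling, 0.02 with RLE scaling and -0.22 with library totals alone (FDR 0.00930). With the main scaling and 1 library left out it ran from -0.010 to 0.007.

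Insig1, the retention protein whose gene is itself strongly induced by SREBP2, stood at 103, 99.4 and 123 CPM in KO and 121, 119.5 and 139 CPM in WT. Its groups overlapped through KO replicate 3, and the log2 fold change was -0.22 (SE 0.09), with FDR 0.0943 for genotype alone and 8.53e-04 with the block. With genotype alone the FDR was 0.0305 without KO replicate 3, but 0.228 without KO replicate 1, 0.290 without KO replicate 2 and 0.271 without WT replicate 3. Insig2, the second retention protein, stood at 30.4, 29.5 and 31.1 CPM in KO and 34.8, 34.1 and 34.9 CPM in WT. The libraries of each genotype were tight and apart, with a log2 fold change of -0.19 (SE 0.06, edgeR FDR 0.0271). The call was lost in several settings, namely without KO replicate 1 (FDR 0.0555), 2 (FDR 0.109) or 3 (FDR 0.0520), without WT replicate 2 (FDR 0.0699) or 3 (FDR 0.0798), without both libraries numbered 3 (FDR 0.115), with no filter on low counts (FDR 0.0663) and in DESeq2 (FDR 0.0854).

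The 4 genes of transport and other targets held the largest changes of the set in both directions, with 3 lower and 1 higher in either fit. Among all genes tested 19.0% were lower and 18.1% higher with genotype alone, and 26.4% and 24.4% with the replicate block. Lpin1 encodes lipin 1, a phosphatidate phosphatase that makes diacylglycerol and also acts in the nucleus, and it is a known SREBP target. It stood at 14.8, 14.3 and 16.4 CPM in KO and 34.3, 37.2 and 35.5 CPM in WT. The gap between the KO and WT libraries was far wider than the spread inside either group. The log2 fold change was -1.23 (SE 0.07, edgeR FDR 3.90e-05), and it ran from -1.45 to -1.19 over the 15 alternatives. Unlike most of the set, Lpin1 in WT was highest in replicate 2. Stard4, a soluble carrier that moves cholesterol between membranes, stood at 15.7, 17.0 and 24.1 CPM in KO and 29.6, 29.1 and 34.7 CPM in WT. It was apart in every library, with a log2 fold change of -0.72 (SE 0.15, edgeR FDR 0.00492), and KO replicate 3 was the nearest to WT.

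Npc1 and Npc2 encode the membrane and the soluble protein that together pass cholesterol out of lysosomes, and they moved in opposite directions. Npc1 stood at 234, 205 and 239 CPM in KO and 291, 257 and 314 CPM in WT, with no overlap and a log2 fold change of -0.34 (SE 0.09, edgeR FDR 0.0167). Npc2, which had the highest CPM of the set, stood at 2208, 2260 and 2227 CPM in KO and 1962, 1857 and 1711 CPM in WT. Every KO library was higher, with a log2 fold change of 0.28 (SE 0.07, edgeR FDR 0.0170). The Npc1 call was lost without KO replicate 2 (FDR 0.0782), and the Npc2 call without KO replicate 2 (FDR 0.0631), WT replicate 2 (FDR 0.0568) or WT replicate 3 (FDR 0.0501). Without both libraries numbered 3 neither passed (FDR 0.0643 for Npc1 and 0.0894 for Npc2). With library totals alone the log2 fold change of Npc2 was 0.06 (FDR 0.479).

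In all, the 3 KO libraries lay under the 3 WT libraries in 12 of the 28 genes, where 26.8% of all genes tested did so, and over them in 2, where 24.0% did so. Of the 12 genes called with genotype alone, 6 were called in the same direction under all 15 alternatives: Acat2, Mvd, Sqle, Hsd17b7, Stard4 and Lpin1.

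**Figure D4:**
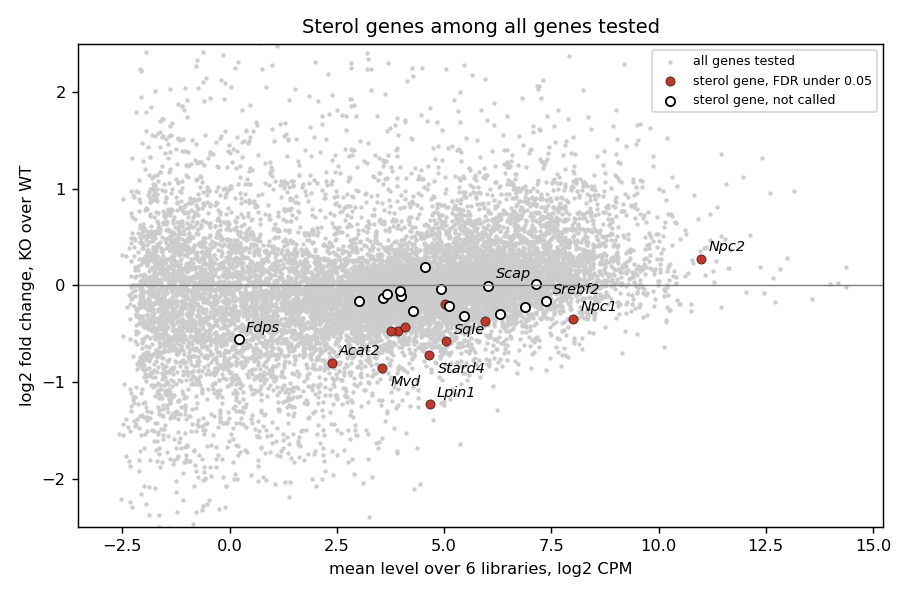
Log2 fold change (vertical axis, KO over WT) against the mean level over the 6 libraries (horizontal axis, log2 CPM) for all genes tested (grey) and for the 28 genes, red where FDR was under 0.05 and open otherwise. The 28 genes span the range of levels from Fdps to Npc2, most lie just below zero, and 44 grey points fall outside the vertical axis.

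Levels of different genes can be compared only per length of transcript. On that scale, WT CPM per kilobase of annotated exon, Npc2 stood at 338.9, followed by Insig1 at 40.9, Acly at 26.8, Npc1 at 25.4 and Srebf2 at 24.3. The highest enzyme of the sterol steps was Ebp at 13.3 CPM per kilobase, with Msmo1 at 11.3 and Cyp51 at 11.1 next to it. The lowest levels were those of Fdps at 0.327 and Lss at 1.65 CPM per kilobase. Exon length here is the union of all annotated transcripts, which lowers the value for genes with many of them.

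Other genes around the pathway were counted from 5 lists. Among the remaining genes of sterol synthesis, 4 of 10 tested were lower and 1 was higher, where 19.0% and 18.1% of all genes tested were. Aacs, which makes acetoacetyl-CoA for lipid synthesis, had a log2 fold change of -0.57 (edgeR FDR 0.00197), and Cyb5r3, a reductase that feeds electrons to sterol oxidases, one of -0.31 (FDR 0.00328). The 11 tested genes that process SREBP proteins or control their turnover had a median log2 fold change of 0.05. Of these, 1 was lower and 3 were higher, where 19.0% and 18.1% of all genes tested were. Those 3 were Rnf139 (log2 fold change 0.62, FDR 0.00125), Rnf145 (0.51, FDR 0.00196) and Fbxw7 (0.37, FDR 0.00884), which encode components of ubiquitin ligases, all at FDR from edgeR's test. Mbtps1, the Golgi protease that makes the first cut in SREBP2, was the gene that was lower (-0.18, FDR 0.0291).

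Of 16 tested genes of fatty acid synthesis and SREBP1, 7 were lower and 1 was higher, where 19.0% and 18.1% of all genes tested were. Their median log2 fold change was -0.20. Acsl3, an acyl-CoA synthetase of lipid droplets, had a log2 fold change of -1.0 (edgeR FDR 4.32e-04), and the desaturase Scd2 had one of -0.73 (FDR 0.0117). Acacb, the mitochondrial acetyl-CoA carboxylase, was higher at 1.74 ± 0.233 against 0.827 ± 0.202 CPM (log2 fold change 1.05, FDR 0.00518). On the list of LXR, oxysterol and efflux genes, 5 of 16 tested were higher and 3 lower, where 18.1% and 19.0% of all genes were, and the median was -0.02. Ch25h, the interferon-induced enzyme that makes 25-hydroxycholesterol, was at 11.8 ± 2.18 CPM in KO and 2.46 ± 0.752 CPM in WT, a log2 fold change of 2.26 (edgeR FDR 1.05e-04). Cyp27a1, which makes 27-hydroxycholesterol, was at 128 ± 12.5 and 61.0 ± 9.84 CPM (1.07, FDR 2.17e-04), and Abcg1, a sterol exporter, at 575 ± 64.4 and 329 ± 77.3 CPM (0.81, FDR 0.00328). The 3 lower genes were Nr1d1 (log2 fold change -0.75), Osbpl3 (-0.42) and Soat1 (-0.28), and the efflux transporter Abca1 was at -0.01 with an FDR of 0.971. The part of any of these genes in the levels of the 28 was not tested.

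Checks of the whole series were limited to those that bear on these genes. Library totals ran from 35257156 to 47390899 counts. Ppp2ca, the targeted gene, had 47, 33 and 38 counts in the KO libraries and 10654, 8913 and 8279 in the WT libraries. Of the 9 macrophage markers listed all were detected, and 2 were higher and 0 lower in KO. Their summed level was 8770 to 8916 CPM in KO and 7478 to 8017 CPM in WT. Lyz2 itself was counted at only 6.58 to 10.1 CPM, and how completely its reads were counted was not tested. Markers of other states moved with genotype. Of 7 tested fibroblast markers (of 8 listed), 6 were lower, with summed levels of 25.4 to 37.7 CPM in KO and 81.1 to 126.9 CPM in WT. Of 10 proliferation markers 9 were lower, with sums of 285.7 to 302.3 CPM in KO and 371 to 442.7 CPM in WT. Among all genes tested 19.0% were lower and 18.1% higher. Pcna, the proliferation marker not called, supplied most of that list's sum, at 199.4 to 207.7 CPM in KO and 207.3 to 247.1 CPM in WT. The proliferation list had a median log2 fold change of -1.08. The proliferation sum, like the sterol enzymes, was highest in the library numbered 3 of each genotype, and the fibroblast sum was lowest there. Their part in the lower sterol genes was not tested. T and NK cell markers had at most 5 counts in any library, with Cd8a at 0 throughout, of the neutrophil markers Ly6g was at 0 throughout, and only 1 of 8 neutrophil and 2 of 5 B cell markers reached the level needed for a test, with none called. Of 7 dendritic cell markers 5 were tested, 2 being higher (Clec9a and Siglech, both with group means under 1 CPM) and 1 lower (Itgax, log2 fold change -0.69).

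**Figure D5:**
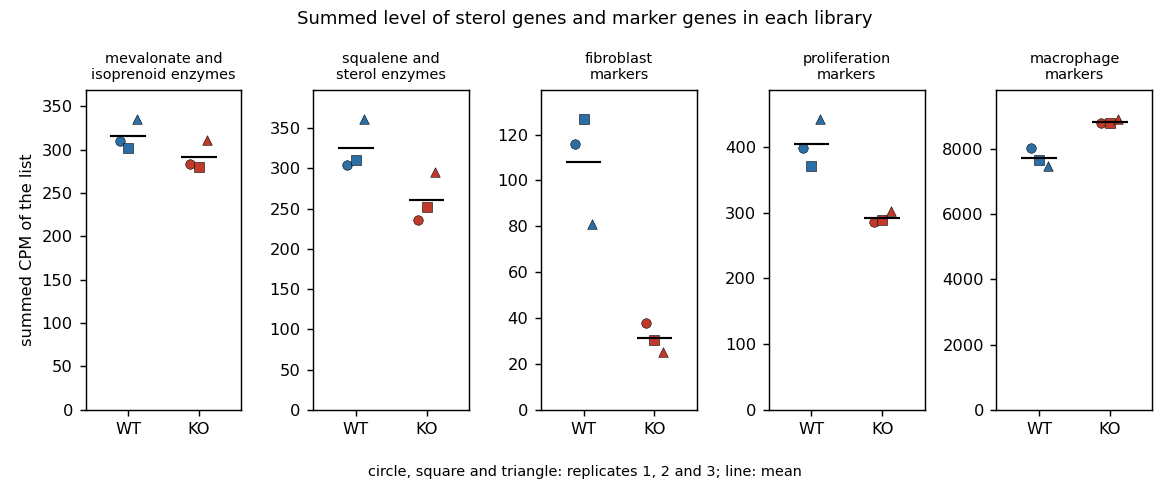
Summed CPM (vertical axes, each from 0) of the 2 groups of enzymes and of 3 marker lists in each library, WT in blue and KO in red, with the 3 replicates as circle, square and triangle and a line at the mean. Mevalonate and isoprenoid enzymes overlap, from 279.4 to 311.3 CPM in KO and from 302 to 335.6 CPM in WT. Squalene and sterol enzymes run from 236.2 to 295.9 CPM in KO and from 304.4 to 361.7 CPM in WT. The fibroblast and proliferation sums are lower and the macrophage sum is higher in KO, each without overlap.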

How the data were processed

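The authors deposited one table of counts, whole numbers of reads per gene symbol without normalization, for 6 poly(A) libraries made with a directional kit. The submitters' processing notes name fastp 0.20.0, kallisto 0.46.1, STAR 2.7.1a, HTSeq 0.11.2, edgeR 3.34.0, limma 3.48.3 and the build mm10 (GRCm38), with no order or role. The annotation release and the strand setting of the counting are not given in the sources used here. Reads carried no molecular identifiers, so PCR copies were counted. All value columns were matched to samples by their names (0 columns without a sample).

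The analysis ran in R 4.3.3, where filterByExpr of edgeR 4.0.16 (minimum count 10, minimum total 15) chose the genes, TMM set the scaling, and glmQLFit with glmQLFTest compared genotypes over all 6 libraries, with Benjamini-Hochberg adjustment over 13680 genes. Called genes had FDR under 0.05. CPM used TMM-scaled totals (factors from 0.910 to 0.937 in KO and 1.05 to 1.10 in WT), and the common biological coefficient of variation was 8.77%. Permuting 3 against 3 libraries exactly gives no p below 0.1, so p-values come from the fit across all genes. The replicate numbers in the labels were taken as pairs because the deviations of same-numbered libraries from their genotype means correlated over 0.1 for each number. Correlations between libraries of different numbers were not computed, so these values do not establish the pairing. What the numbers share is not stated. The fit was checked on simulated data, drawn with the same dispersion for all genes and no replicate effect. Nonzero changes as small as the members' median were not simulated.

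The alternatives tried were the replicate block, DESeq2 1.42.0, voom in limma 3.58.1, scaling by RLE or by the upper quartile, keeping all genes, requiring 10 counts in each library, and leaving out 1 library at a time. Library totals alone and leaving out both libraries numbered 3 were chosen after seeing the data. The 28 genes, the lists, the motifs and the tests were chosen with earlier results of these data known. All 28 are named; values for each library are given for the genes called at FDR under 0.05 and for Srebf2, Scap, Insig1 and Insig2, with Hmgcs1, Cyp51 and Ggps1 added after their values were seen, and on each other list the 3 called genes with the largest change, of which 1 is not reported here. Mbtps1, Nr1d1, Osbpl3, Soat1, Abca1, Pdss2, Lyz2, Cd8a, Ly6g and the dendritic markers fall outside that rule. Positions, exon lengths and shared 50-base windows come from GENCODE M21 (GRCm38), and promoter sequences from RefSeq (GRCm38.p6).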

Additional observations from a re-analysis of the deposited data

How the results depend on the processing

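The members' counts of 11 lower and 1 higher were 17 and 2 with the replicate block, 11 and 2 with RLE scaling, 25 and 0 with library totals alone, and 11 and 0 without both libraries numbered 3. Of all genes tested, 19.0% were lower and 18.1% higher in the main fit, 26.4% and 24.4% with the block, and 17.7% and 19.4% with RLE scaling. Without both libraries numbered 3, 1873 of all genes were lower and 1948 higher, against 2604 and 2470 in the main fit. Over the fits that left out 1 library the members' counts ran from 7 to 15 lower and from 0 to 2 higher. Those of all genes ran from 1873 to 2720 lower and from 1974 to 2721 higher. Other alternatives kept the members' lower count between 10 (DESeq2, with 2280 of all genes lower) and 16 (upper-quartile scaling, with 3356 lower). Library totals alone also gave 3 members past the study's thresholds on the lower side in place of 1, a members' median of -0.46 in place of -0.25, 6125 genes lower and 1503 higher, 746 lower and 294 higher at the study's thresholds, and 40 lower genes on the other lists in place of 16; this scaling gives up the TMM factors, which were below 1 in KO and above 1 in WT. Signs turned in 4 genes. Scap was 0.0203 with RLE scaling, 0.0203 with DESeq2 and 0.00128 without both libraries numbered 3, and with 1 library left out it ran from -0.01002 to 0.00701. Acly was -0.0509 with upper-quartile scaling, -0.20 with library totals alone and -0.0206 to 0.0492 with 1 library left out. Nsdhl reached 0.0072 without KO replicate 1 and 0.0148 without KO replicate 2, and Ggps1 was -0.0238 with library totals alone. The replicate block added 6 lower genes and 1 higher gene and lost no call. The causes of these shifts were not tested. No outlier was sought, since groups of 3 are too small, and counts limit Fdps and Acat2 most.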

Other observations

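Of the 14 genes that use isoprenoids downstream of the mevalonate steps, all of them tested, 1 was lower and 2 were higher in KO, where 19.0% and 18.1% of all genes tested were, and the median log2 fold change was -0.06. Coq2, which joins the isoprenoid tail to the ring of ubiquinone, was at 69.7 ± 5.33 CPM in KO and 44.7 ± 3.339 CPM in WT (log2 fold change 0.64, edgeR FDR 3.60e-04), and Pdss1, which builds that tail, was at 3.25 ± 0.105 and 2.04 ± 0.385 CPM (0.67, edgeR FDR 0.00892). In both genes no KO library overlapped a WT library. Pdss2, the partner subunit of Pdss1, was at 4.57 ± 0.470 and 3.95 ± 0.370 CPM (0.21, edgeR FDR 0.227). Fnta, a subunit shared by the farnesyl and geranylgeranyl transferases, was the lower one, at 41.3 ± 0.656 and 46.4 ± 1.07 CPM (-0.17, edgeR FDR 0.0391).

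These values have limits. The libraries were taken at a single treated state, so a difference present before cGAMP and one that arose after it cannot be told apart. KO and WT mice came from different sources, which cannot be told apart from genotype. The table holds steady-state RNA on whole genes. SREBP2 cleavage, protein and sterol content were not measured in it.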
